A study of Mus musculus with 201 samples.

Results

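In all, 9 genes of the postsynaptic side of the excitatory synapse were followed through single dentate granule cells (DGCs) and their nuclei. They are the 4 *Dlg* genes (*Dlg1*, *Dlg2*, *Dlg3* and *Dlg4*), the 3 *Shank* genes (*Shank1*, *Shank2* and *Shank3*), *Dlgap1* and *Synpo*. The 9 members were taken by symbol, and all of them had a row among the 42790 symbols of the whole-cell table, the 42802 of the table of nuclei from a mouse exposed to a new environment and the 42774 of the home cage table. The study asked how a brief experience changes the RNA of single neurons, and whether dissociating whole cells or isolating nuclei disturbs that picture. Of 201 cells and nuclei deposited, 172 were used here.

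The whole cells came from mice of the Prox1-GFP strain, in which the promoter of *Prox1*, a transcription factor of granule cells, drives a cytoplasmic fluorescent protein. Such mice received pentylenetetrazole (PTZ, a GABA receptor antagonist that causes seizures) at 50 mg/kg or saline, hippocampi were collected 1 h later and pooled from 2 mice per treatment, and GFP+ cells were sorted after protease dissociation. Of these cells, 30 of 35 PTZ-treated and 38 of 47 saline-treated ones were kept. The nuclei came from wild-type female C57BL/6 mice of 8 weeks and were freed by Dounce homogenization without protease. For the NE (new environment) nuclei, 1 mouse explored an unfamiliar cage for 15 min and was killed after 1 h back in its home cage. Its PROX1+ nuclei were sorted by FOS protein, which left 40 of 48 FOS+ and 41 of 48 FOS- nuclei. The 23 home cage (HC) nuclei were NEUN+PROX1+, came from 1 mouse that was not exposed, and were amplified in a microfluidic C1 chip, whereas whole cells and NE nuclei were amplified with Smart-seq2. The FOS+ and FOS- nuclei are thus 2 gates of 1 animal, and each other group is 1 animal or 1 pool. Cells of 1 source are not replicates of a condition, so no comparison carries a test, and the spreads given are between cells. The titles of the PTZ-treated and the saline-treated cells end in different codes, that of every saline-treated cell beginning with frz, whose meaning the labels do not give. Whatever the codes stand for cannot be told apart from treatment, nor can the platform from the home cage.

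The postsynaptic density is a protein sheet under the membrane of the dendritic spine. DLG proteins sit closest to the membrane, where they bind glutamate receptors, potassium channels and adhesion proteins. DLGAP1 binds the DLG proteins, SHANK proteins bind DLGAP1 and join it to Homer and the actin cytoskeleton, and synaptopodin, the product of *Synpo*, is an actin-binding protein needed for the spine apparatus, a stack of endoplasmic reticulum in large spines. In the hippocampus, granule cells receive the input from the entorhinal cortex on such spines.

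The values are TPM, the share of a transcript among all transcripts of a cell after scaling for its length, so levels of different genes within a cell can be ordered. A gene was called detected above 1 TPM. *Synpo* was the 1 member that differed by more than 4-fold between the gates of the NE nuclei. It was detected in 37 of 40 FOS+ nuclei, 25 of 41 FOS- nuclei and 3 of 23 HC nuclei, with a median of 609, 15.3 and 0 TPM. The other 8 genes differed by less than 4-fold between FOS+ and FOS- nuclei, and all 9 differed by less than 4-fold between PTZ- and saline-treated cells.

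Markers of granule neurons (*Prox1*, *Rbfox3*, *Calb1*, *Dsp* and *C1ql2*) were found in every group. Their summed level had a median of 1755 TPM in saline-treated cells, 1625 in PTZ-treated cells, 6348 in FOS- nuclei, 4297 in FOS+ nuclei and 644 in HC nuclei. Total counts ranged from 67212 to 5129240 in whole cells, from 63775 to 1060516 in NE nuclei and from 107647 to 278779 in HC nuclei. In HC nuclei 3237 ± 371 genes were detected (SD, n = 23 nuclei), against group means between 6185 and 6281 in the others. The sort was visible in the RNA. *Arc*, which codes for a synaptic protein and is switched on by activity, was detected in 31 of 40 FOS+ nuclei and 1 of 41 FOS- nuclei, and *Fos* in 12 and 3.

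**Figure D1:**
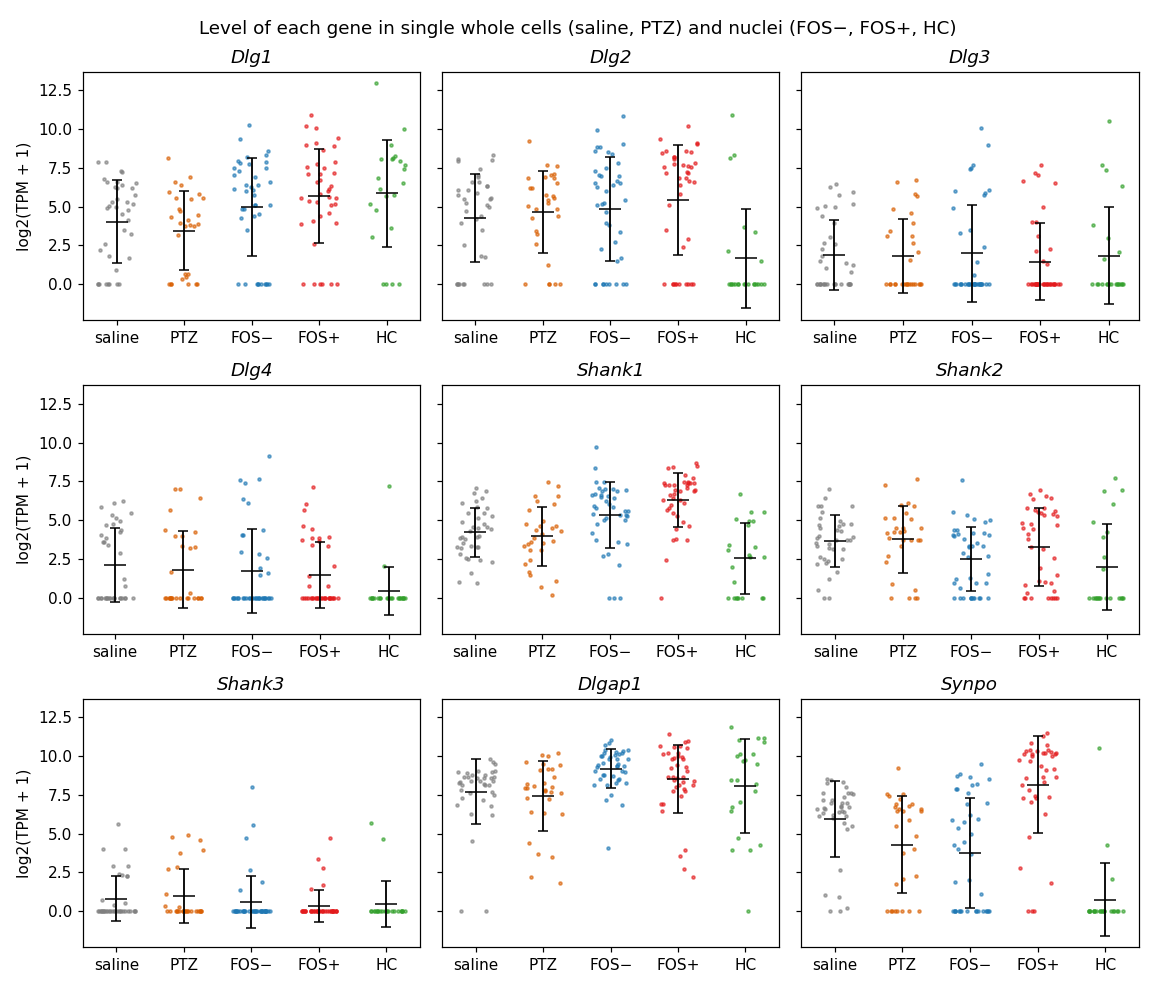
Level of the 9 genes, as log2(TPM + 1), in each whole cell (saline, n = 38; PTZ, n = 30) and nucleus (FOS−, n = 41; FOS+, n = 40; HC, n = 23). Dots are single cells or nuclei, and the bars show the mean and the SD between them. *Dlgap1* is high in every group, and *Synpo* is high in FOS+ nuclei, spread from 0 upwards in FOS- nuclei and mostly at 0 in HC nuclei.

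*Dlg1*, which codes for a scaffold of synapses and epithelial junctions, lies on chromosome 16 (GRCm38, 31663443 to 31875129, plus strand). Its level had a lowest, median and highest TPM of 0, 29.8 and 235 in saline-treated cells and of 0, 14.2 and 282 in PTZ-treated cells. In FOS- nuclei these values were 0, 63.5 and 1236, in FOS+ nuclei 0, 59.5 and 1923, and in HC nuclei 0, 91.3 and 7973. The groups overlapped throughout, and *Dlg1* was the second most abundant member in HC nuclei, where 19 of 23 nuclei had it.

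*Dlg2*, whose product clusters receptors and potassium channels, spans 1973 kb of chromosome 7 (90476672 to 92449247, plus strand), the longest of the 9 genes. It was detected in 29 of 38 saline-treated and 25 of 30 PTZ-treated cells, with medians of 35.4 and 39.4 TPM. In FOS- nuclei the lowest, median and highest TPM were 0, 41.2 and 1830, and in FOS+ nuclei 0, 130 and 1177. The gates overlapped, with means of 4.88 ± 3.35 and 5.42 ± 3.54 log2(TPM + 1) in FOS- and FOS+ nuclei (SD, n = 41 and 40 nuclei). Only 7 of 23 HC nuclei had the gene, and 1 of them held 74.5% of its summed count.

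*Dlg3*, on the X chromosome (100767722 to 100818410, plus strand), and *Dlg4*, on chromosome 11 (70016942 to 70047522, plus strand), code for the other 2 scaffolds of this family, and the product of *Dlg4* is the most studied of them. Neither was detected in most cells of any group. Among whole cells *Dlg3* was found in 19 of 38 given saline and 13 of 30 given PTZ, and among nuclei in 14 of 41 FOS- nuclei, 13 of 40 FOS+ nuclei and 8 of 23 HC nuclei. *Dlg4* was found in 18, 12, 15, 14 and 2 of them, in the same order. Single nuclei carried much of the sums, since 1 FOS- nucleus held 61.1% of the *Dlg3* count and another 51.8% of the *Dlg4* count of that gate. The summed level of *Dlg4* was 39.3 CPM (a share of all counts of the group, not scaled for length) in FOS- nuclei (exact 95% Poisson interval 36.1 to 42.7) and 12.9 in FOS+ nuclei (11.1 to 14.9). These intervals cover counting error only.

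The *Shank* genes differed widely in level. *Shank1* (chromosome 7, 44310253 to 44360572, plus strand) was found in nearly every cell outside the home cage group. Its lowest, median and highest TPM were 0.91, 16.6 and 134 in saline-treated cells and 0.11, 14.9 and 177 in PTZ-treated cells. They were 0, 54.6 and 847 in FOS- nuclei, 0, 115 and 413 in FOS+ nuclei, and 0, 5.24 and 100 in HC nuclei. The gates overlapped over almost their whole range, although the median was higher in the FOS+ gate.

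*Shank2* (chromosome 7, 144001928 to 144424494, plus strand) was detected in 35 of 38 cells given saline and 24 of 30 given PTZ, and in 26 of 41 FOS- nuclei, 28 of 40 FOS+ nuclei and 9 of 23 HC nuclei. Its medians were 12.3, 17.2, 6.21, 14.2 and 0 TPM in that order. All groups held both cells without *Shank2* and cells above 100 TPM. *Shank3* (chromosome 15, 89499623 to 89560261, plus strand) was the least abundant member in every group but the HC nuclei, with a median of 0 TPM in all 5. It was detected in 9 of 38, 8 of 30, 6 of 41, 5 of 40 and 2 of 23 cells or nuclei, and its highest value anywhere was 255 TPM, in a FOS- nucleus.

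*Dlgap1* (chromosome 17, 69969073 to 70821413, plus strand), whose product links the DLG layer to the SHANK layer, was the most abundant member in all 5 groups. It was detected in every FOS- nucleus, FOS+ nucleus and PTZ-treated cell, in 36 of 38 saline-treated cells and in 22 of 23 HC nuclei. Its lowest, median and highest TPM were 15.9, 667 and 2145 in FOS- nuclei and 3.64, 400 and 2770 in FOS+ nuclei. The median was 323 in saline-treated cells, 244 in PTZ-treated cells and 353 in HC nuclei, all within the ranges of the NE nuclei.

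Ordered by the mean of log2(TPM + 1), *Dlgap1* led in FOS- nuclei at 9.20 ± 1.28 (SD, n = 41 nuclei) and exceeded *Shank1*, the next gene, in 39 of 41 nuclei. That was the 1 step between neighbours, in any group, whose mean difference (3.86) was larger than its SD over cells (2.72). All other neighbours in the 5 orders differed by less than that spread, including *Dlgap1* and *Synpo* in FOS+ nuclei, at 8.51 ± 2.20 and 8.15 ± 3.14 (SD, n = 40 nuclei). *Synpo* took the second place in FOS+ nuclei and in saline-treated cells, the third in PTZ-treated cells, the fifth in FOS- nuclei and the seventh in HC nuclei. The lower end was more alike, with *Dlg3*, *Dlg4* and *Shank3* in the last 3 places of each group other than HC.

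**Figure D2:**
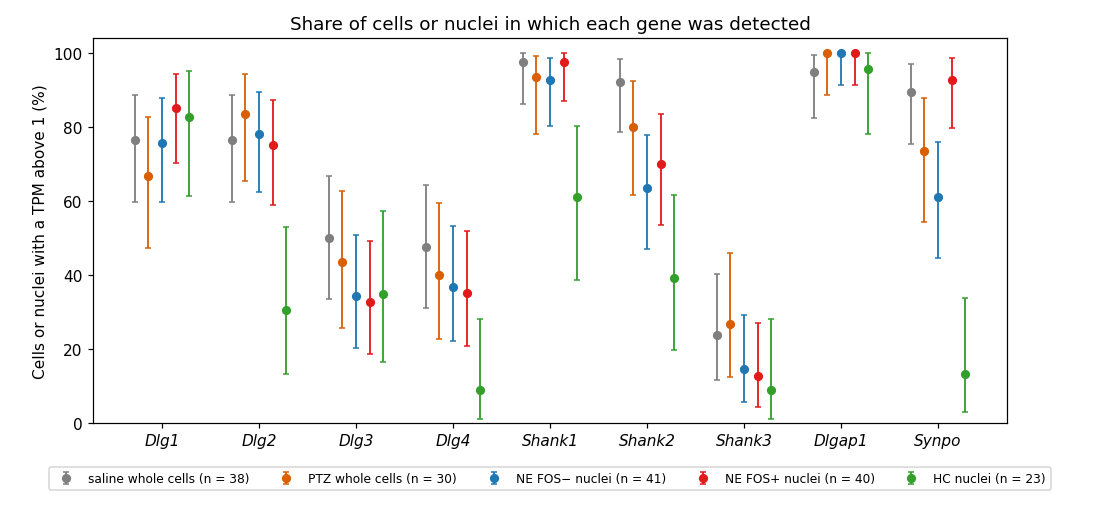
Share of cells or nuclei with a TPM above 1 (%) for the 9 genes in the 5 groups. Points are the shares and bars are exact 95% binomial intervals, which cover counting error only. *Synpo* goes from 3 of 23 HC nuclei to 92.5% of FOS+ nuclei, whereas *Dlgap1* lies at 94.7% or higher in all groups.

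*Synpo* lies on the minus strand of chromosome 18 and spans 66.2 kb. In FOS+ nuclei its lowest, median and highest TPM were 0, 609 and 2860, and in FOS- nuclei they were 0, 15.3 and 728. It was not detected in 20 of 23 HC nuclei, and the highest there was 1480 TPM, in a nucleus that held 95.9% of the *Synpo* count of that group. The gates overlapped, but in a lopsided way, with 19 of 40 FOS+ nuclei above the highest FOS- nucleus and 1 of 41 FOS- nuclei above the FOS+ median. At 0 TPM were 3 FOS+ and 16 FOS- nuclei.

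On the log2(TPM + 1) scale *Synpo* had a mean of 8.15 ± 3.14 in FOS+ nuclei (SD, n = 40 nuclei) and 3.74 ± 3.54 in FOS- nuclei (n = 41 nuclei), a difference of 4.41, larger than either SD. The fold change fitted to the counts by edgeR was 3.17 on the log2 scale, or 8.99-fold. The share of nuclei with a TPM above 1 was 92.5% (79.6 to 98.4) in FOS+ and 61.0% (44.5 to 75.8) in FOS- nuclei, with exact 95% binomial intervals that cover counting error only. The study itself names *Synpo* for this comparison, so its direction here is not independent of that choice. The study first left out FOS+ nuclei whose RNA grouped with that of FOS- nuclei, whereas all kept FOS+ nuclei were used here.

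How common such differences are sets the scale. Of 16411 genes measured in NE nuclei, 2.18% differed by at least 2 in mean log2(TPM + 1), 16.6% had a fitted fold change of at least 4, and 3.63% differed by at least 25 percentage points in detection. Of the 9 members 1 was past each of these limits, *Synpo* in each case. A large fitted fold change was thus common in these nuclei, whereas a difference of that size in the mean log level was not. The medians over all genes were -0.09 for the difference in mean log2(TPM + 1) and -0.10 for the fitted log2 fold change.

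*Shank1* was 0.96 higher in FOS+ than in FOS- nuclei in mean log2(TPM + 1), and its fitted log2 fold change was 1.00, which is about 2-fold. *Shank2* had a difference of 0.76 and a fitted log2 fold change of 1.54. *Dlg1* and *Dlg2* were also higher in FOS+ nuclei on both scales, by 0.71 and 0.55 in mean log2(TPM + 1), although the difference in detection of *Dlg2* was -3.05 percentage points. For *Dlg3*, *Dlg4* and *Shank3* both scales were below 0, with fitted log2 fold changes of -1.05, -0.99 and -0.74. For each of these 7 genes the difference in mean log2(TPM + 1) was smaller than its SD between the nuclei of either gate.

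*Dlgap1* was 0.69 lower in FOS+ nuclei in mean log2(TPM + 1), while its fitted log2 fold change was -0.03. The fit compares the average counts of the gates relative to depth, whereas the other scale averages the log levels of the nuclei. The level of *Dlgap1* was more spread in FOS+ nuclei, with an SD of 2.20 against 1.28 log2 units. FOS+ nuclei at 2.21, 2.72, 3.55 and 3.96 log2(TPM + 1) lay below the lowest FOS- nucleus, at 4.08. The lowest of them had only 1373 genes detected. How much of the difference these nuclei carry was not tested. Several fitted values rested on single nuclei. Without the nucleus with its highest count, the fitted log2 fold change went from -0.74 to 0.27 for *Shank3*, from -1.05 to -0.31 for *Dlg3*, from -0.99 to -0.42 for *Dlg4* and from 0.40 to 0.07 for *Dlg2*. With the amplification condition as a covariate it was -0.13 for *Dlg3*, -0.64 for *Dlg4*, -0.21 for *Shank3* and 0.69 for *Dlg2*.

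**Figure D3:**
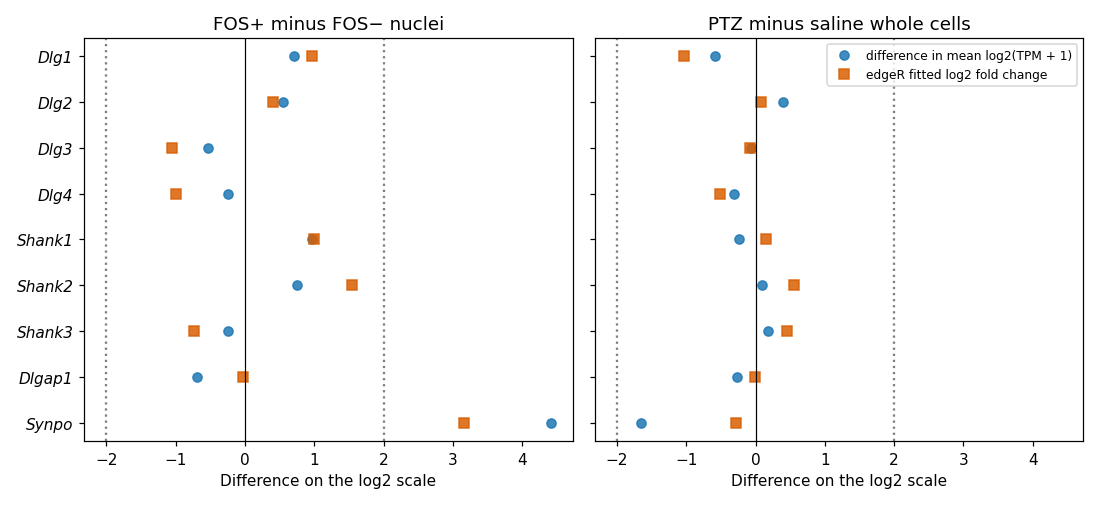
Difference of each gene between FOS+ and FOS− nuclei (left) and between PTZ- and saline-treated whole cells (right), on the log2 scale. Circles are differences in mean log2(TPM + 1), squares are edgeR's fitted log2 fold changes, and dotted lines mark 2, a 4-fold change. *Synpo* in FOS+ nuclei, at 4.41 and 3.17, is the 1 gene past a dotted line.

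The NE nuclei were amplified under 4 conditions. These combined 1 or 10 µM template-switching oligo (TSO) with a dilution of 1:200 or 1:2000 of the ERCC spike-in RNA. The TSO is a template onto which reverse transcription switches to extend the end of the first cDNA strand. *Synpo* was higher in FOS+ nuclei in 4 of 4 conditions, by between 1.64 and 6.80 in mean log2(TPM + 1). With 1 µM TSO, FOS- nuclei had it in 2 of 10 nuclei at 1:200 and 5 of 10 at 1:2000. With 10 µM TSO, 7 of 10 and 11 of 11 FOS- nuclei had it at these dilutions. The FOS+ nuclei had it in 8 of 10, 8 of 8, 11 of 11 and 10 of 11 nuclei in the same order. Medians were 0, 0.565, 46.3 and 192 TPM in FOS- and 638, 725, 316 and 1025 TPM in FOS+ nuclei. On the log2(TPM + 1) scale the means of the conditions spanned 1.49 to 6.61 in FOS- and 7.41 to 8.67 in FOS+ nuclei.

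*Shank1* and *Dlg2* were also higher in FOS+ nuclei in 4 of 4 conditions, *Shank1* by 0.61 to 1.93 and *Dlg2* by 0.06 to 1.10. The mean of *Dlgap1* was higher in FOS+ nuclei in none of them, with differences from -1.63 to -0.21. With 1 µM TSO its medians in FOS+ and FOS- nuclei were close, at 328 and 355 TPM (1:200) and 619 and 639 TPM (1:2000). With 10 µM TSO they were 620 and 1000 TPM (1:200) and 392 and 716 TPM (1:2000). For *Dlg1* the conditions went both ways, from -1.93 to 3.72, and for *Shank2* 3 of 4 were higher in FOS+ nuclei. Conditions with 8 to 11 nuclei per gate give imprecise means, and no order between them was tested.

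**Figure D4:**
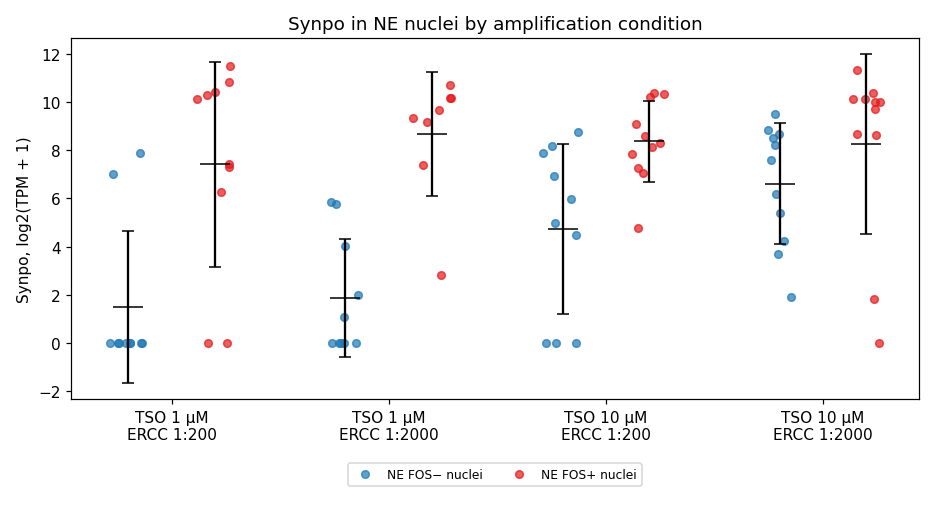
*Synpo*, as log2(TPM + 1), in NE nuclei by amplification condition, that is, concentration of the template-switching oligo (TSO) and dilution of the ERCC spike-ins. Dots are single nuclei (8 to 11 per gate and condition) and bars show the mean and SD. The FOS+ mean is above the FOS- mean in all 4 conditions, and FOS- nuclei at 0 are most common with 1 µM TSO.

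Median totals were 269061 counts in FOS+ and 214421 in FOS- nuclei. If every nucleus is thinned to 60000 counts, *Synpo* is expected in 90.9% of FOS+, 53.9% of FOS- and 10.8% of HC nuclei. At the same depth *Dlgap1* is expected in 97.5%, 99.8% and 93.9%, *Shank1* in 97.3%, 91.8% and 57.6%, and *Dlg2* in 71.9%, 68.9% and 22.9%. With the same total count HC nuclei thus had lower shares of *Synpo*, *Shank1* and *Dlg2* than NE nuclei, while *Dlg1* was at 67.2% in HC nuclei against 68.1% and 67.9% in FOS+ and FOS- nuclei. Only the total count was matched, since HC nuclei had fewer genes detected and were amplified and sequenced in another way, which cannot be told apart from the home cage.

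Markers of other cell types were present in some nuclei. A TPM above 50 of *Gfap*, *Csf1r*, *Gad2* or *Fibcd1* was found in 8 of 40 FOS+ and none of 41 FOS- nuclei. These are markers of astrocytes, microglia, interneurons and CA1 neurons, and they were singled out after their values were seen. *Slc1a3*, another astrocyte marker, was above 50 TPM in 7 of 40 FOS+ and 4 of 41 FOS- nuclei. The summed level of the 4 astrocyte markers went up to 584 TPM in FOS+ and 413 TPM in FOS- nuclei, with *Aldh1l1* at 0 in both gates, and that of the 5 interneuron markers up to 1360 and 1313 TPM, with *Pvalb* at 0 in both. Of these, *Gad1* alone reached 1360 and 1311 TPM, and it was above 50 TPM in 17 of 40 and 8 of 41 nuclei. For the 4 microglia markers the highest sums were 456 and 51.8 TPM, with *C1qa* and *Aif1* at 0, for the 3 CA1 markers 159 and 46.7 TPM, and for the 3 endothelial markers 110 and 13.8 TPM, with *Cldn5* at 0 in both. Leaving out the 8 FOS+ nuclei past that limit took none of the 41 FOS- nuclei. The fitted log2 fold change of *Synpo* was then 3.24 and its difference in mean log2(TPM + 1) was 4.40. The fitted value of *Dlg1* went from 0.96 to 0.05 and that of *Shank3* from -0.74 to -2.69, so that 2 members were past 4-fold. Over all genes 2769 of the 16004 measured without these nuclei were past 4-fold in the fit. *Shank3* was detected in few nuclei of either gate.

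*Synpo* and *Arc* were compared nucleus by nucleus, as a description. Both were detected in 29 of 40 FOS+ nuclei, *Synpo* alone in 8, *Arc* alone in 2 and neither in 1. In FOS- nuclei *Synpo* was found without *Arc* in 25 of 41 nuclei, and no nucleus had both. RNA of *Synpo* was thus present in many nuclei that had no detectable *Arc*, although at lower levels than in most FOS+ nuclei. Among HC nuclei 3 of 23 had *Synpo* alone and 1 *Arc* alone. In whole cells *Synpo* was found in 34 of 38 saline-treated cells, of which 17 had *Arc* too.

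**Figure D5:**
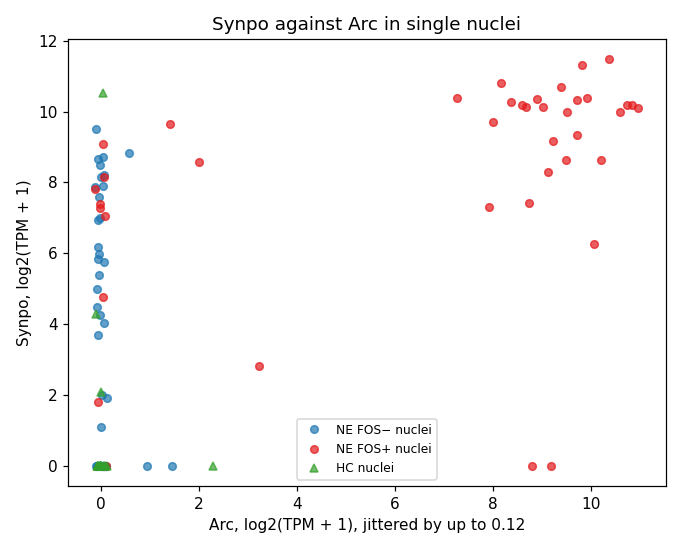
*Synpo* against *Arc* in single nuclei, both as log2(TPM + 1), for 40 FOS+, 41 FOS− and 23 HC nuclei. The *Arc* values are jittered so that dots at 0 can be seen. The FOS- nuclei lie along the left edge from 0 upwards, and most FOS+ nuclei lie at the upper right.

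Over the 81 NE nuclei the genes whose log2(TPM + 1) was most like that of *Synpo*, out of 9350 genes found in at least 20 nuclei, were *Slc6a6*, a taurine transporter (Pearson's r = 0.63), *Scg2*, a granin of dense-core vesicles (0.60), *Fbxo33*, an F-box gene (0.59), *Lingo1*, a membrane protein gene (0.57), and *Arc* (0.56). Within the FOS+ nuclei alone these values were 0.42, 0.46, 0.45, 0.32 and 0.42, and within the FOS- nuclei 0.55, 0.45, 0.32, 0.37 and -0.14. The likeness to *Arc* was thus absent within the FOS- gate, where *Arc* was hardly detected. Of the members, *Shank1* ranked 1055 (r = 0.22), *Dlg2* 1460 (0.19) and *Dlgap1* 3667 (0.08). Within the FOS+ nuclei their r was 0.26, 0.31 and 0.40, and within the FOS- nuclei -0.01, 0.05 and 0.01. All nuclei share 1 source, and the effect of values at 0, or of nuclei low in both genes, on such correlations was not tested.

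Pooled over the groups of a table, correlations between members were weak. Over the 36 pairs Spearman's rho had a median of 0.06 in NE nuclei, with a range of -0.14 to 0.23, and a median of 0.11 in whole cells, with a range of -0.23 to 0.32. In HC nuclei, with 23 points, the range was -0.36 to 0.39. Cells had a median of 7 members detected in the saline group, 6 in the PTZ and FOS+ groups, 5 in the FOS- group and 4 in the HC group.

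In whole cells *Synpo* was detected in 34 of 38 saline-treated and 22 of 30 PTZ-treated cells. Its lowest, median and highest TPM were 0, 97.9 and 370 in saline-treated cells and 0, 50.6 and 613 in PTZ-treated cells. All saline-treated cells lay within the range of the PTZ-treated ones, which held both more cells without *Synpo* and the highest value. The difference in mean log2(TPM + 1) was -1.65, between 4.29 ± 3.12 (SD, n = 30 cells) and 5.94 ± 2.42 (n = 38 cells), less than either SD. The fitted log2 fold change was -0.29. The shares had exact 95% binomial intervals of 54.1 to 87.7% after PTZ and 75.2 to 97.1% after saline, for counting error only.

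Of 14492 genes measured in whole cells, 0.711% differed by at least 2 in mean log2(TPM + 1), 8.49% had a fitted fold change of at least 4 and 2.87% differed by at least 25 percentage points in detection. None of the 9 members was past any of these limits, and no test stands behind this count. Fitted log2 fold changes of the members ran from -1.04 for *Dlg1* to 0.56 for *Shank2*, with a median of -0.01 against -0.04 over all genes. *Dlg1* was lower after PTZ on both scales (-0.58 in mean log2(TPM + 1)), and for *Shank1* the 2 scales had opposite signs (-0.24 and 0.15).

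A group of 4 PTZ-treated cells stood apart, with over 10000 genes detected each and a correlation above 0.9 of each with another of them, while the highest of any other whole cell was 0.82. Without them the difference of *Synpo* in mean log2(TPM + 1) was -2.03, past the limit of 2, and its fitted log2 fold change was -0.50. The other 8 members stayed within 4-fold. Genes in general shifted downwards too. Of 13751 genes measured without these cells, 260 differed by at least 2 in mean log2(TPM + 1), 241 of them downwards. The median difference over all genes went from -0.05 to -0.22. The highest level or the detection of some markers of other cell types differed between the treatments. The astrocyte gene *Slc1a3* reached 2588 TPM in PTZ-treated cells and 87.4 TPM in saline-treated ones, with detection in 6 of 30 and 8 of 38 cells. It was above 50 TPM in 2 cells of each treatment. The CA1 gene *Fibcd1* was found in 12 of 30 and 5 of 38 cells. The summed level of the astrocyte markers had a median of 0 TPM in both treatments. It went up to 3421 TPM after PTZ and 87.4 TPM after saline, with *Aqp4* at 0 in both. That of the CA1 markers went up to 288 and 277 TPM. For interneuron markers the highest sums were 597 and 795 TPM, with *Sst*, *Pvalb* and *Slc32a1* at 0, for microglia 5.48 and 27.2 TPM, with *C1qa* and *Aif1* at 0, and for endothelial markers 18.7 and 6.38 TPM, with *Cldn5* and *Flt1* at 0. The interneuron sums were those of *Gad1*, the 1 of these 5 markers detected. It was above 50 TPM in most cells, 21 of 30 and 29 of 38. The part of all these markers in the comparison was not tested.

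Proteins that the scaffolds hold in place were looked at with them. The first list held 12 genes of NMDA and AMPA receptors, their auxiliary subunits and neuroligins. No list was tested, and each is given by its counts and median beside those of all genes. In NE nuclei none of the 12 was past any limit, and their median fitted log2 fold change was 0.18, against -0.10 over all genes. In whole cells 1 of 12, *Cacng3*, a gene of an AMPA receptor auxiliary subunit, was 2.65 lower after PTZ in mean log2(TPM + 1). It was found in 19 of 30 PTZ-treated and 35 of 38 saline-treated cells, and its fitted log2 fold change was -1.03.

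The second list held 25 other scaffold and signalling genes of the postsynaptic density. In NE nuclei 2 were past 4-fold upwards and 1 downwards on both log scales. *Homer1*, a gene of the Homer proteins, had a median of 320 TPM in FOS+ and 1.35 TPM in FOS- nuclei. It was detected in 37 of 40 and 22 of 41 of them and had a fitted log2 fold change of 4.05. Levels are per gene, so its transcript forms were not told apart. *Baiap2*, which codes for an actin-bundling partner of the SHANK and DLG proteins, had medians of 1644 and 323 TPM and a fitted log2 fold change of 2.62. *Iqsec2*, a gene of an exchange factor that binds DLG proteins, went the other way, with detection in 11 of 40 FOS+ and 27 of 41 FOS- nuclei and a fitted log2 fold change of -3.15. The 3 of 25 genes stand beside the 16.6% of all genes past 4-fold in the fit, and the median of the list was 0.06 against -0.10 over all genes.

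In whole cells 24 genes of this list were measured. *Homer2* had a fitted log2 fold change of 2.33 after PTZ and was detected in 8 of 30 and 3 of 38 cells. *Homer1* was found in 8 of 30 PTZ-treated and 20 of 38 saline-treated cells, past the limit of 25 percentage points, with a fitted log2 fold change of -1.31. No other gene of the list was past a limit there, and the comparison of the sign of *Homer1* between whole cells and nuclei was not tested.

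The third list held 12 genes of actin and the spine apparatus around synaptopodin, all measured in NE nuclei and 10 of them in whole cells. *Actn4*, which codes for an alpha-actinin, a partner of synaptopodin, was higher in FOS+ nuclei by 2.05 in mean log2(TPM + 1) and 2.20 in the fitted log2 fold change, with detection in 24 of 40 and 15 of 41 nuclei. *Actn1*, another alpha-actinin, was found in 31 of 40 and 21 of 41 nuclei, 26.3 percentage points more, and had a fitted log2 fold change of 1.19. *Dbn1*, the gene of the actin-binding protein drebrin, was 2.09 lower in mean log2(TPM + 1), with a fitted log2 fold change of -1.25. *Synpo2*, a relative of *Synpo*, had a fitted log2 fold change of -2.73, but it was detected in only 6 of 40 and 8 of 41 nuclei and its difference in mean log2(TPM + 1) was -0.21. In the fit 2 of 12 genes were past 4-fold, beside 16.6% of all genes. In whole cells none of the 10 genes measured was past a limit. The medians of this list were -0.22 and 0.15 on the fitted and the mean log scales, opposite in sign, against -0.10 and -0.09 over all genes.

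Reads of some members cannot be told apart from those of neighbours. Smart-seq2 libraries keep no strand, and in the GENCODE annotation of GRCm38 exons of *Shank1*, *Shank3* and *Dlgap1* overlap antisense genes (*1700008O03Rik*, *Gm15609* and *AC079441.1*), while *Dlg2* shares exon sequence with *Gm45159* and *Gm45131* on its own strand. No such overlap was found for *Dlg1*, *Dlg3*, *Dlg4*, *Shank2* or *Synpo*.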

How the data were processed

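Whole cells and HC nuclei were read from both ends and NE nuclei from one end with shorter reads, per the methods. The authors trimmed the reads of each cell and aligned them with RSEM and Bowtie 1.0.0 to mm10, per the labels and methods. They deposited expected counts, RSEM's estimates of reads per gene, without normalization, and TPM values scaled within each cell, without a log. Cells were kept with a total count over 50000 and more genes above 1 TPM than the mean minus 2 SD of their table. All 23 HC nuclei were kept, 1 of them below that limit on genes. Fewer PTZ-treated cells and FOS- nuclei, and more FOS+ nuclei, were kept than in the study. Spike-in counts were not used here. Groups follow the labels, while age, dose, times and pooling follow the methods. The expected counts were then rounded, genes were retained if 5 or more cells had a count above 0, and log2 fold changes were fitted with edgeR 4.0.16 (quasi-likelihood fit, TMM factors, no covariate). Differences in mean log2(TPM + 1) came from limma 3.58.1, and DESeq2 1.42.0 served as an alternative. Tests across cells had been planned and are not reported, because the cells of a group come from 1 mouse or 1 pool of mice. In their place a limit of 2 on the log2 scale or 25 percentage points is used, and the genes named from the 3 lists are those past it. The genes named are otherwise the 9 members, *Arc* and *Fos*, the 5 genes most like *Synpo*, and markers. *Gfap*, *Csf1r*, *Gad1*, *Gad2*, *Fibcd1* and *Slc1a3* were singled out after their values were seen. The markers of 1 other cell type are not reported here. The members and lists were chosen with earlier results of these data known. The scripts were tested on simulated data. Intervals are at 95%. A count of 3 is between 5.85e-05% and 0.00470% of a total, which limits detection and covers counting error only, since reads that carry no molecular identifier do not each stand for a molecule. Alternatives were other normalizations, filters, pseudocounts, limits of detection, covariates and subsets of cells.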

Additional observations from a re-analysis of the deposited data

How the results depend on the processing

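*Synpo* stayed higher in FOS+ nuclei under all 11 alternatives to the main fit, with values of 2.96 to 4.41. The 4.41 is the difference in mean log2(TPM + 1), which was counted among them. The highest fold change fitted to counts was 3.69, with the amplification condition as a covariate. It also stayed higher under all 6 alternatives of the mean log level (3.22 to 5.49) and all 4 of detection (25 to 36.3 percentage points). In whole cells the difference of *Synpo* in mean log2(TPM + 1) went from -2.29 (pseudocount 0.1) to -0.996 (pseudocount 10). With pseudocount 0.1, or without the 4 PTZ-treated cells of more than 10000 genes, 1 member was thus past the limit of 2. Over all genes 719 of 14492 and 260 of 13751 were past it at these 2 settings. Without the 8 FOS+ nuclei above 50 TPM of *Gfap*, *Csf1r*, *Gad2* or *Fibcd1*, 2 members were past 4-fold in the fit, beside 2769 of 16004 genes. No FOS- nucleus was left out by that limit, although some had *Gad1* or *Slc1a3* above 50 TPM. *Dlgap1* in the fit of NE nuclei changed sign under 3 alternatives and *Shank3* under 1. In whole cells the fitted values of *Dlg2* and *Dlg3* changed sign under 3 alternatives each, that of *Dlgap1* under 4 and that of *Shank1* under 1, all of them near 0. For *Shank1* that alternative was the difference in mean log2(TPM + 1), not a fit to counts. The median fitted log2 fold change over all genes moved from -0.04 to -0.17 in whole cells with DESeq2 size factors.

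Counts of genes past the limits depended on the settings. For PTZ against saline the fit gave 1230 of 14492 genes, and 103 by the mean log level. It gave 3101 of 20868 genes without a filter on low counts and 27 of 6300 with filterByExpr. By the mean log level there were 103, and 719 with pseudocount 0.1, 8 with pseudocount 10, 45 with all cells and 260 without the 4 cells. By detection there were 416, and 817 without the 4 cells and 176 with all cells. For FOS+ against FOS- the fit gave 2731 of 16411 genes, and 358 by the mean log level. It gave 4687 of 23473 genes without a filter and 75 of 1900 with filterByExpr. By the mean log level there were 358, and 1074 with pseudocount 0.1, 72 with pseudocount 10 and 225 with all nuclei. By detection there were 596, and 366 with all nuclei.

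The alternatives without the 4 cells or the 8 nuclei, and the thinning to 60000 counts, were chosen after seeing the data. No paired analysis was possible because replicate numbers only name cells in accession order.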
